A study of Mus musculus with 4 samples.

Results

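The insulin-like growth factor (Igf) system was described here through 10 genes of a ribosome profiling table: the ligands Igf1 and Igf2, the receptors Igf1r and Igf2r, and the binding proteins Igfbp2, Igfbp3, Igfbp4, Igfbp5, Igfbp6 and Igfbp7. They were taken by name from the 55573 genes listed, and 9 of the 10 were among the 11363 genes tested, which had a mean of at least 1 RPKM (reads per kilobase of gene length, scaled by library size). Ribosome-protected RNA was sequenced from primary myoblasts (cultured precursors of muscle) on day 2 of proliferation in medium with FGF. There were 4 libraries, 2 labelled WT and 2 labelled eIF5A knockout (eIF5A-KO), from 3-week-old mice. According to the study's methods, the knockout mice were Pax7 CreERT2/+;eIF5A f/f and received tamoxifen, so that Cre acted in cells that expressed Pax7, and the controls were WT littermates. The genotype of the controls is given both as Pax7 CreERT2/+ and as Pax7 +/+;eIF5A f/f. Eif5a codes for a translation factor that carries hypusine, a modified lysine made with spermidine, and helps ribosomes past stretches such as consecutive prolines. No label ties a library to a separate animal or culture, so p-values measure the spread between these libraries, which may be technical.

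The targeted gene did not separate the groups. Eif5a was read at 34.9 and 65.2 RPKM in WT libraries 1 and 2 and at 60.3 and 59.4 RPKM in the libraries labelled eIF5A-KO 1 and 2, a log2 fold change of 0.32 (SE 0.48, limma, Benjamini-Hochberg adjusted p = 0.839). The groups are therefore named by their labels throughout, and KO 1 and KO 2 stand for the libraries labelled eIF5A-KO. The study measured knockout efficiency in muscle stem cells, as mRNA and as protein, and reported that the knockout mice were established. A value over the whole gene cannot show whether a part of it was lost. Whole reads could be recovered from the RPKM values and came to between 642429 and 704006 per library. Protein-coding genes held 41.5% and 33.9% of them in WT libraries 1 and 2, against 65.4% and 59.2% in KO 1 and KO 2.

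Igf1 and Igf2 are small secreted hormones related to insulin, and both signal through Igf1r, a receptor tyrosine kinase that turns on the PI3K-Akt-mTOR arm. Igf2r has no kinase. It takes Igf2 up for breakdown in lysosomes and sorts lysosomal enzymes that carry mannose 6-phosphate. The Igfbps hold most Igf outside the cell and release it when proteases cut them. In muscle, Igf1 and Igf2 promote growth of myoblasts and their later differentiation, Igf2 and H19 are imprinted neighbours that are switched on in differentiating myoblasts, and Igfbp5 is made by myogenic cells.

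What makes these genes a family can be read in their coding sequences, taken from the GENCODE M21 transcripts (build GRCm38, which is mm10). The ligands share a stretch of the insulin-like B chain that is coded within exon 2 of the annotated coding transcripts used here. It is shown because the ligands are alike there in protein and yet differ in their bases: 29 of its 39 bases and 5 of its 13 codons are the same, while 11 of the 13 residues are. Capitals mark the codons of its first and last cysteine. The Igf1 stretch lies at chr10:87864827-87864865 on the plus strand and the Igf2 stretch at chr7:142655676-142655714 on the minus strand.
Igf1: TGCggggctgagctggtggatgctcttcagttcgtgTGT
Igf2: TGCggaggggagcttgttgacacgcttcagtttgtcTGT

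The binding proteins share a cluster of cysteines near the start of the protein, which reads glycine, cysteine, glycine and a pair of cysteines, then any 2 residues and a last cysteine. This signature of 8 codons was found in 4 of the 6 binding proteins, Igfbp2, Igfbp3, Igfbp4 and Igfbp5, whereas Igfbp7 had its last 7 codons and Igfbp6 neither form. Of 21794 mouse coding sequences, 18 (0.0826%) held the whole signature. The stretches below are all in the first coding exon and end with the signature. Those of Igfbp2 to Igfbp5 start 1 codon before the nearest upstream run of prolines, and that of Igfbp7, which has no such run close by, starts at a like distance from the signature. Capitals mark the signature and, before it, any run of 2 or more prolines. They are shown because they hold the family signature and, in Igfbp2 and Igfbp3, a run of 3 prolines. The Igfbp2 stretch is at chr1:72824733-72824801 (plus strand), that of Igfbp3 at chr11:7213566-7213637 (minus), that of Igfbp4 at chr11:99041611-99041673 (plus), that of Igfbp5 at chr1:72873966-72874031 (minus) and that of Igfbp7 at chr5:77407826-77407894 (minus).
Igfbp2: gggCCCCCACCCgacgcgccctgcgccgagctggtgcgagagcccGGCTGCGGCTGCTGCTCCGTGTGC
Igfbp3: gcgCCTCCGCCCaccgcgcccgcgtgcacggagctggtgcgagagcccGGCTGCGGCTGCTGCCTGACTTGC
Igfbp4: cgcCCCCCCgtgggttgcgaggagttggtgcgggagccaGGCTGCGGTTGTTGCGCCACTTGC
Igfbp5: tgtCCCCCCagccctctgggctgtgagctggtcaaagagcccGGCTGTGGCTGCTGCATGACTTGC
Igfbp7: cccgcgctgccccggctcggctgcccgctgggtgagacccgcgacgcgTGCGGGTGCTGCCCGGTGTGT

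A run of 3 or more prolines was present in 2 of the 10 members, Igfbp2, which has 2 such runs, and Igfbp3. Over all mouse coding sequences searched, 20.01% had one. Across the translated proteins, identity over the shorter of a pair ranged from 21.2% between Igfbp3 and Igfbp7 to 44.7% between Igfbp3 and Igfbp5.

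No member of the Igf system was called between the groups, and no difference between groups was larger than the test could tell from the spread between libraries. Of the 9, 0 passed an adjusted p under 0.05 (limma on log2(RPKM + 1), Benjamini-Hochberg over 11363 genes), where 0.106% of all tested genes did. At an unadjusted p under 0.05 there were again 0 members, against 7.32% of all tested genes. With limma-voom on the recovered reads, 0 members passed the adjusted and 1, Igf2, the unadjusted threshold, against 0.695% and 11.1% of all tested genes. In 3 of the 9 the KO values lay below both WT values (Igf2, Igfbp3 and Igfbp5), against 20.3% of all tested genes, and in 0 they lay above both, against 20.1%. Igf2 had entered the test only through a WT library, so neither its place among the 3 nor its p with limma-voom carries weight. The log2 fold change was below 0 in 6 members and above 0 in 3, with a median of -0.29 beside 0.00026 over all tested genes. Adjusted p-values ran from 0.697 to 0.934. When every library was instead given an equal sum of reads, the median over all tested genes moved to 0.47 and that of the members to 0.26, with 4 members below 0 and 5 above.

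**Figure D1:**
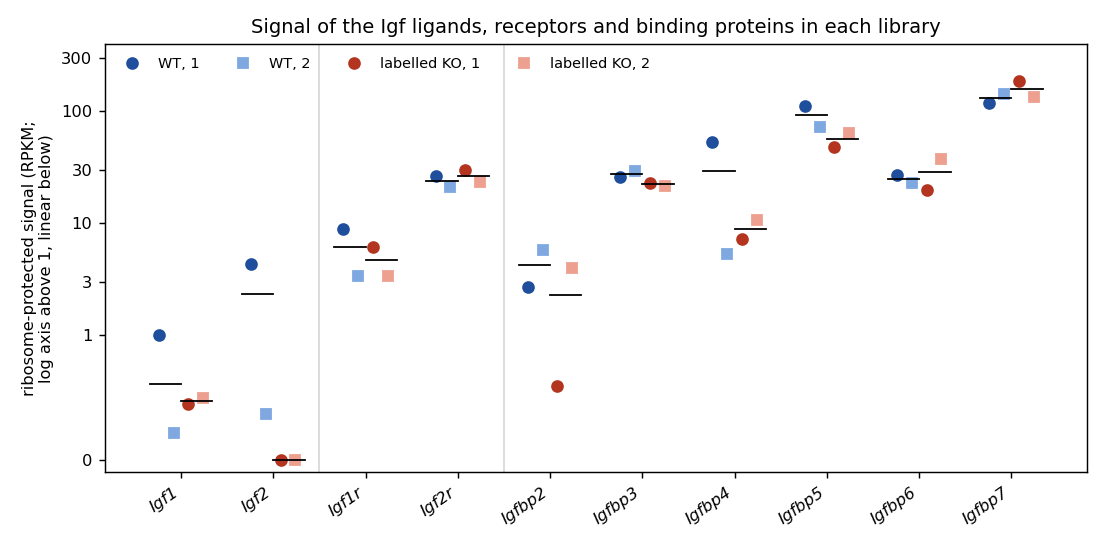
Ribosome-protected signal in RPKM (vertical axis, log above 1 and linear below) for each of the 10 members (horizontal axis) in each of the 4 libraries, with horizontal bars at the group means. Igfbp7 and Igfbp5 are the highest members in all 4 libraries, Igf1 and Igf2 are the lowest by mean, and Igfbp4 stands at 53.7 RPKM in WT library 1 against 5.29 to 10.7 in the others.

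Of the ligands, Igf1 was at the edge of detection. It lies at chr10:87858265-87937042 (plus strand) and was read at 1.00 and 0.214 RPKM in WT libraries 1 and 2 and at 0.445 and 0.500 RPKM in KO 1 and KO 2, which were 6, 1, 4 and 4 reads. The KO values fell between the WT values. With a mean of 0.541 RPKM it did not enter the test, and without the filter its log2 fold change was -0.08 (limma, Benjamini-Hochberg adjusted p = 0.952).

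Igf2 was read in WT library 1 almost alone. The gene, at chr7:142650766-142666816 on the minus strand, had 15 reads in WT library 1 (4.35 RPKM, 95% exact Poisson interval 2.43 to 7.17), 1 read in WT library 2 (0.371 RPKM) and 0 in KO 1 and KO 2. The KO libraries were therefore below both WT libraries, but WT library 2 was itself under its floor of 3 reads (1.11 RPKM), and Igf2 passed the filter through WT library 1 only. With each KO library set at its floor of 3 reads, the WT mean of 2.36 RPKM was 3.85-fold above the KO mean. This takes the WT reads as exact, so it is not a lower bound. The ratio rests on WT library 1, and without this library no such ratio can be given. The fitted log2 fold change was -1.44 (SE 0.99, limma, Benjamini-Hochberg adjusted p = 0.698), and it was -0.46 with WT library 1 left out and -2.42 with WT library 2 left out. Its size depends on the pseudocount, and it was -3.86 with a pseudocount of 0.1 and -4.14 with limma-voom. With limma-voom, the unadjusted p was 0.00175 and the adjusted p 0.141. The annotation has a second gene, Gm49394, on the same strand, whose exons cover 62.8% of the exon bases of Igf2 and 95.3% of its 576 coding bases. Gm49394 was listed at 0 in all 4 libraries, and since the counting rule for reads that fall on 2 genes is not given in the sources used here, the level of Igf2 is uncertain.

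Both receptors had a higher RPKM than the ligands in every library and did not separate the groups. Igf1r (chr7:67952827-68233668, plus strand) was at 8.89 and 3.41 RPKM in WT libraries 1 and 2 and at 6.11 and 3.39 RPKM in KO 1 and KO 2. Library 1 was the higher one in both groups, and the groups overlapped. Its log2 fold change was -0.24 (SE 0.53, limma, Benjamini-Hochberg adjusted p = 0.892), and it changed sign with an equal sum of reads in every library and without WT library 1 or KO 2.

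Igf2r (chr17:12682406-12769664, minus strand) was the steadier receptor. It was at 26.7 and 21.2 RPKM in WT libraries 1 and 2 and at 29.8 and 23.3 RPKM in KO 1 and KO 2, from 93 to 252 reads a library. The 4 values spanned less than 1 log2 unit and the groups overlapped. The log2 fold change was 0.14 (SE 0.41, 95% interval -0.86 to 1.14, limma, Benjamini-Hochberg adjusted p = 0.920), and an interval of that width does not show that the level was the same. The sign turned without WT library 2 or without KO 1. With an equal sum of reads in every library the log2 fold change was 0.73. Both KO values then lay above both WT values, as in 41.4% of all tested genes.

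Among the binding proteins, Igfbp5 was the member whose groups lay furthest apart for its error. Igfbp5, which binds Igf in the pericellular matrix, lies at chr1:72857932-72874884 on the minus strand, beside Igfbp2. It was read at 112.4 and 73.2 RPKM in WT libraries 1 and 2 and at 48.3 and 64.1 RPKM in KO 1 and KO 2, from 207 to 407 reads a library. Both KO values were below both WT values, with a WT mean of 92.8 ± 27.8 RPKM (SD, n = 2) against 56.2 ± 11.2 RPKM (SD, n = 2). The difference did not pass the test, at a log2 fold change of -0.70 (SE 0.47, 95% interval -1.86 to 0.47, limma, Benjamini-Hochberg adjusted p = 0.697). With an equal sum of reads in every library it shrank to -0.09 and the groups overlapped.

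Igfbp3, the main carrier of Igf in blood and a binding protein with a run of 3 prolines, also had both KO values below both WT values, by a small margin. The gene, at chr11:7206086-7213923 on the minus strand, was at 26.0 and 29.2 RPKM in WT libraries 1 and 2 and at 22.9 and 21.8 RPKM in KO 1 and KO 2. The log2 fold change was -0.29 (SE 0.39, limma, Benjamini-Hochberg adjusted p = 0.814). It turned to 0.30 with an equal sum of reads in every library, where both KO values lay above both WT values.

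Igfbp4, a binding protein that the protease Pappa cleaves, differed far more between the WT libraries than between the groups. It lies at chr11:99041244-99054392 on the plus strand and was at 53.7 and 5.29 RPKM in WT libraries 1 and 2 and at 7.24 and 10.7 RPKM in KO 1 and KO 2, from 143, 11, 29 and 38 reads. WT library 1 was 10.2-fold above WT library 2, and both KO values fell between them. Only 1.48% of the tested genes had as large a log2 difference of WT library 1 over WT library 2. The log2 fold change of -0.92 (SE 0.99, limma, Benjamini-Hochberg adjusted p = 0.768) became 0.64 without WT library 1 and -2.48 without WT library 2.

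Igfbp7, a matrix protein with a low affinity for Igf that is also made by endothelial cells, had the highest RPKM of the family. At chr5:77349240-77408041 on the minus strand, it was read at 119.4 and 144.0 RPKM in WT libraries 1 and 2 and at 185.1 and 134.2 RPKM in KO 1 and KO 2. KO 1 was the highest and the groups overlapped, with a log2 fold change of 0.26 (SE 0.48, limma, Benjamini-Hochberg adjusted p = 0.867). It was 0.033 with KO 1 left out, 0.71 with the trend on coding GC removed and 0.88 with an equal sum of reads in every library, where both KO values lay above both WT values. The gene shares 85 exon bases, 7.03% of its exons, with Polr2b on the opposite strand.

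Igfbp6, which prefers Igf2 over Igf1 and lacks the full cysteine signature, lies at chr15:102144362-102149511 on the plus strand. It was at 26.9 and 22.9 RPKM in WT libraries 1 and 2 and at 19.8 and 37.9 RPKM in KO 1 and KO 2, from 12 to 34 reads. The KO values enclosed the WT values, and the log2 fold change was 0.14 (SE 0.47, limma, Benjamini-Hochberg adjusted p = 0.934), with the sign turned without KO 2. With an equal sum of reads in every library it was 0.73. Both KO values then lay above both WT values, as in 41.4% of all tested genes.

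Igfbp2 had the lowest mean RPKM of the binding proteins. At chr1:72824503-72852474 on the plus strand, it was at 2.69 and 5.75 RPKM in WT libraries 1 and 2 and at 0.597 and 4.02 RPKM in KO 1 and KO 2, which were 3, 5, 1 and 6 reads. The groups overlapped, and library 2 was the higher one in both. The log2 fold change was -0.82 (SE 0.67, limma, Benjamini-Hochberg adjusted p = 0.722), and without KO 1 it was 0.0086.

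**Figure D2:**
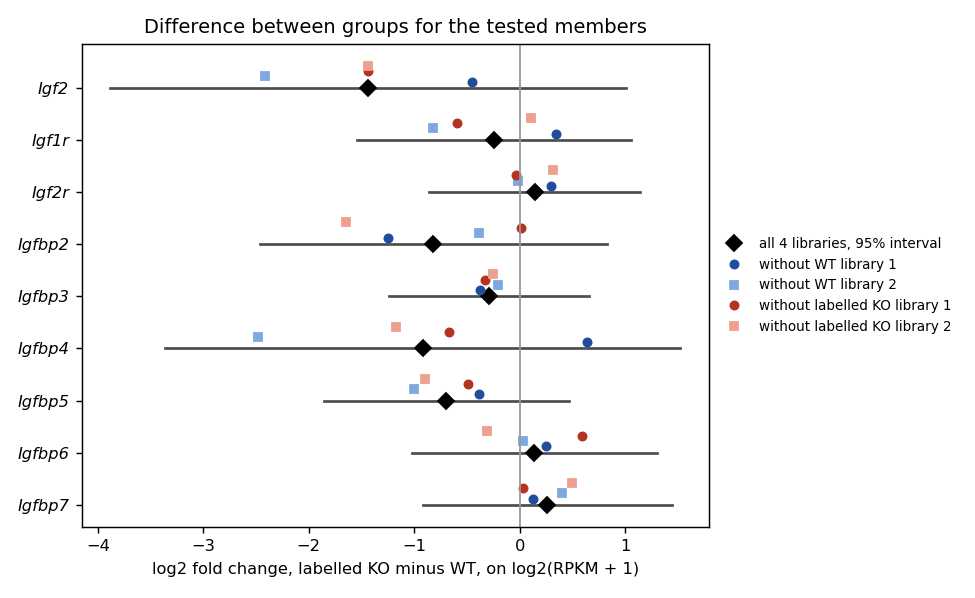
Log2 fold change of the libraries labelled eIF5A-KO over WT on log2(RPKM + 1) (horizontal axis) for the 9 tested members (vertical axis). Black diamonds and lines show the value and 95% interval from all 4 libraries, and coloured points the value with 1 library left out. All 9 intervals include 0, and the Igfbp4 value moves from -2.48 to 0.64 with the WT library that is left out.

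The members were next compared with each other. Per kilobase of gene length, the mean over the 4 libraries was 145.7 RPKM for Igfbp7 and 74.5 RPKM for Igfbp5, an order that held in 4 of 4 libraries. Igfbp5 was followed by Igfbp6 (26.9 RPKM), Igf2r (25.3 RPKM), Igfbp3 (24.9 RPKM) and Igfbp4 (19.2 RPKM). These neighbours did not keep 1 order, as each was above the next in 3 of 4 libraries. Igf1r (5.45 RPKM) was below Igfbp4 in 4 of 4 libraries and above Igfbp2 (3.27 RPKM) in 2 of 4, and Igf2 (1.18 RPKM) and Igf1 (0.541 RPKM) came last.

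Gene length in the table includes untranslated exons, which ribosomes do not read through in the main frame, and the members differ in how much of it is coding. Of the gene length of Igfbp7, 77.9% is coding sequence, and of that of Igfbp5 only 13.6%. Per kilobase of coding sequence, with all reads of a gene taken as coding, Igfbp5 came first at a mean of 548.2, against 186.9 for Igfbp7, again in 4 of 4 libraries. Igfbp4 took rank 3 (111.0) and Igfbp3 rank 4 (88.8), although Igfbp4 was the higher of these in only 1 of 4 libraries, WT library 1. Igf2 (11.7), Igf1 (10.8) and Igfbp2 (6.57) had the lowest means, and their order was not settled. Igf2 was above Igfbp2 in 1 of 4 libraries, WT library 1, and without that library the means were 1.23 for Igf2, 7.69 for Igf1 and 6.95 for Igfbp2. Whether all reads fell in the coding part was not tested, since the table gives 1 value per gene.

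**Figure D3:**
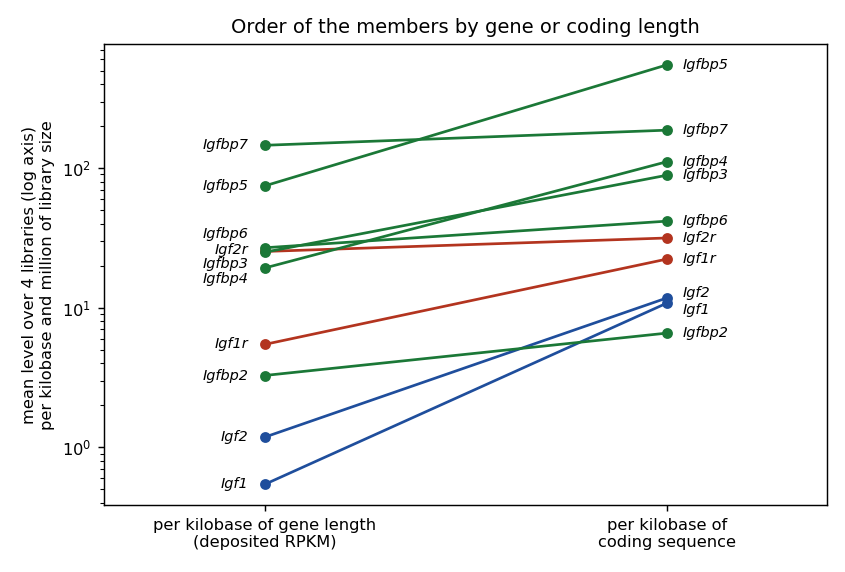
Mean level over the 4 libraries (vertical log axis) per kilobase of gene length (left) and per kilobase of coding sequence (right), both scaled to library size, with a line for each member; binding proteins are green, receptors red and ligands blue. Igfbp7 leads on the left at 145.7 and Igfbp5 on the right at 548.2, and the ligands and Igfbp2 are the lowest on the right, where the Igf2 mean of 11.7 rests on WT library 1.

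Shares of the reads within the binding protein family do not depend on how libraries are scaled. Igfbp2 to Igfbp7 together held 707, 360, 581 and 575 reads in WT libraries 1 and 2 and in KO 1 and KO 2. Igfbp5 took 57.6% and 57.5% of them in the WT libraries and 45.3% and 54.1% in KO 1 and KO 2. Both KO shares were lower, a mean difference of -7.86 percentage points, and an exact permutation test, two-sided over the libraries, gave p = 0.333, the smallest p that 2 libraries against 2 allow. For KO 2 the 95% Wilson interval of 50.0% to 58.1% includes the WT shares, while that of KO 1, 41.3% to 49.3%, does not.

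Igfbp7 was the second largest in 3 of the 4 libraries. It held 12.3% and 22.8% of the binding protein reads in WT libraries 1 and 2 and 34.9% and 22.8% in KO 1 and KO 2 (exact permutation test, p = 0.333), so WT library 2 and KO 2 did not differ at this depth. Igfbp4 held 20.2% in WT library 1 and 3.06%, 4.99% and 6.61% in the other 3 (exact permutation test, p = 1). Igfbp3 held 6.93% to 11.9%, Igfbp6 2.55% to 5.91% and Igfbp2 0.172% to 1.39%. Read shares favour long genes, and Igfbp5 (6006 bases) is longer than Igfbp7 (1209 bases). By RPKM, which divides by gene length, Igfbp7 held the largest share in all 4 libraries, at 35.004%, 51.4%, 65.2% and 49.2%, and Igfbp5 17.0% to 33.0%. No adjustment over these 6 shares would lower any p, and none reached 0.05.

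**Figure D4:**
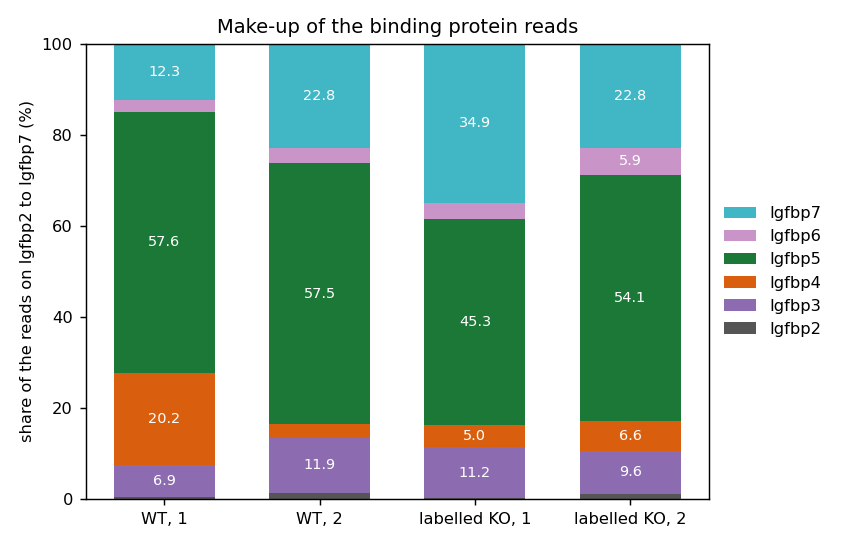
Share of the reads on Igfbp2 to Igfbp7 (vertical axis, %) taken by each of them in each of the 4 libraries (bars). Igfbp5, the longest of these genes, holds the largest share of reads in all 4, from 45.3% to 57.6%, and Igfbp4 holds 20.2% in WT library 1 and under 7% elsewhere.

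All 10 members together took 0.360% and 0.221% of the protein-coding reads in WT libraries 1 and 2 and 0.202% and 0.208% in KO 1 and KO 2, from 968, 482, 930 and 800 reads. WT library 1 was apart from the other 3. By summed RPKM, the family stood at 382.0, 305.4, 320.4 and 299.7 in the same order, and the KO values overlapped the WT values.

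WT library 1, the highest for Igfbp4, Igfbp5, Igf1, Igf2 and Igf1r, was also the highest for the markers of differentiating muscle, of myoblasts, and of smooth muscle and pericytes. Igf1r was second highest in KO 1, where the differentiating muscle sum was below that of WT library 2. The summed RPKM of that list of 10 genes was 294.4 and 57.3 in the WT libraries and 37.5 and 32.5 in KO 1 and KO 2. All 10 were in the table with none at 0 in all libraries, and of the 6 tested the log2 fold change was below 0 in 6. In 5 of these both KO values lay below both WT values, against 20.3% of all tested genes. The myoblast list of 10 genes summed to 252.3 and 204.0 in the WT libraries and to 96.9 and 130.2 in KO 1 and KO 2, which is the order of the libraries by Igfbp5 as well. Pax7, the gene whose locus carries the Cre, was at 8.49, 3.62, 0.941 and 1.48 RPKM. Myod1, which defines the myoblast label, was read in all 4 libraries, at 139.9, 117.5, 48.6 and 79.8 RPKM. Of the 9 tested genes of the list 8 had a log2 fold change below 0, with none called. In 6 of them both KO values lay below both WT values, against 20.3% of all tested genes. Vcam1 went the other way, with both KO values above both WT values, at 5.42, 11.7, 20.01 and 13.0 RPKM (log2 fold change 0.92). In such bulk samples, fewer cells of a type, less RNA per cell and fewer ribosomes per RNA cannot be told apart from these values alone. For Myod, the paper reported no difference in mRNA level between WT and eIF5A-KO cells and a lower translation efficiency in the KO cells.

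Markers of other cells were also read. The fibroblast list of 12 genes summed to 643.8 and 428.0 RPKM in the WT libraries and to 1071 and 510.6 RPKM in KO 1 and KO 2, and the groups overlapped. Of its 12 tested genes 10 had a log2 fold change above 0, with none called. In 4 both KO values lay above both WT values and in 1, Thy1, below both, against 20.1% and 20.3% of all tested genes. The endothelial list of 10 genes summed to 261.7 and 375.2 RPKM in the WT libraries and to 380.9 and 443.5 RPKM in KO 1 and KO 2. Of its 9 tested genes 8 had a log2 fold change above 0, with none called. In 5 both KO values lay above both WT values and in 0 below both, against 20.1% and 20.3% of all tested genes. The order of these sums rests on Cldn5, a tight junction gene at 73.8 and 166.4 RPKM in the WT libraries and 147.9 and 237.8 RPKM in KO 1 and KO 2. Without it the sums of the other 9 were 187.9, 208.8, 233.0 and 205.6 RPKM, and the groups overlapped. KO 1 was highest for both the fibroblast sum and Igfbp7, whereas WT library 1 was second for the fibroblast sum and lowest for Igfbp7. WT library 1 was also the lowest for the endothelial sum, with and without Cldn5. The immune list of 8 genes ran from 48.2 to 76.5 RPKM, with Itgam at 0 in all libraries, and the smooth muscle and pericyte list of 8 genes from 113.5 to 172.3 RPKM, with Tagln at 0. The part of cell make-up in the values of the members was not tested.

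**Figure D5:**
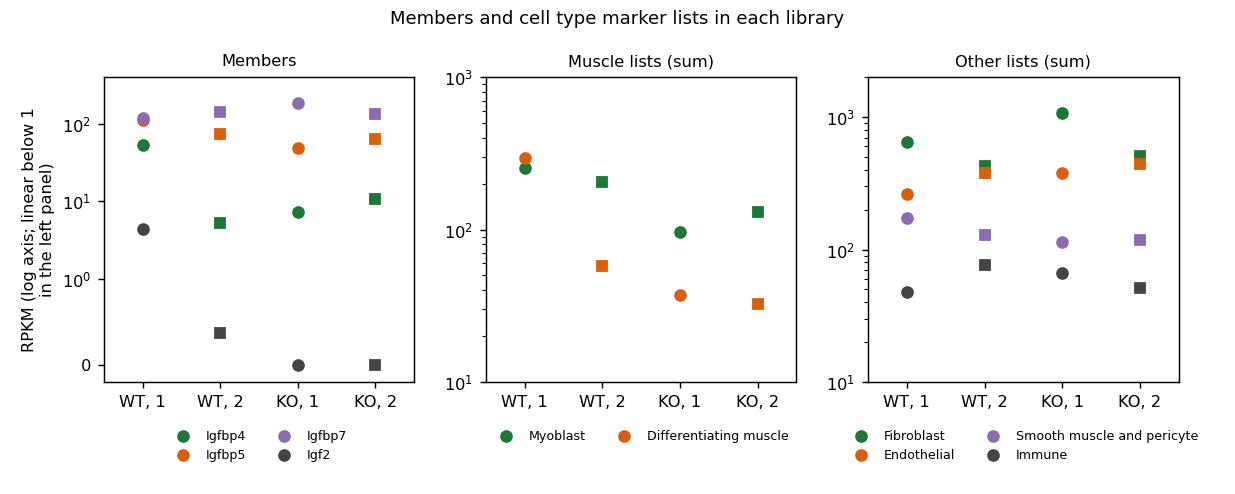
RPKM (vertical log axes, linear below 1 in the left panel) in each of the 4 libraries for Igfbp4, Igfbp5, Igfbp7 and Igf2 (left) and for the summed marker lists of muscle (middle) and of other cells (right). Igfbp4, Igf2 and the differentiating muscle sum are highest in WT library 1, and the fibroblast sum and Igfbp7 are highest in KO 1.

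The genes around the members were described through 78 genes in lists by role, of which 58 were tested and 0 called by limma at an adjusted p under 0.05. At an unadjusted p under 0.05 there were 4 of 58, where 7.32% of all tested genes passed. At a minimum mean of 5 RPKM, where fewer genes were tested, that count was 1, against 9.16% of all genes tested there. The count also moved when a library was left out, where a lone library gives its group no spread of its own. The KO values were below both WT values in 21 of the 58 and above both in 3, against 20.3% and 20.1% of all tested genes. The log2 fold change was below 0 in 46 of 58 with a median of -0.39, and 46.9% of the tested protein-coding genes were below 0 with a median of 0.05. With an equal sum of reads in every library, 22 of the 58 were below 0 and the median was 0.11 beside 0.53 over the tested protein-coding genes. With limma-voom, 6 passed the unadjusted threshold and 2, Htra3 and H19, the adjusted one, against 11.1% and 0.695% of all tested genes.

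Beside the ligands and receptors, 7 further family members were listed. Insr, the insulin receptor, was the only one tested, at 4.83, 3.09, 3.69 and 2.88 RPKM in WT libraries 1 and 2 and KO 1 and KO 2 (log2 fold change -0.19). Igfbp1, Igfbpl1 and the insulin genes Ins1 and Ins2 were listed at 0 in all 4 libraries.

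Among 12 binding protein proteases and inhibitors, 8 were tested, 3 of them below 0 and 5 above. Mmp2, a gelatinase, was the highest at 146.1 and 80.0 RPKM in the WT libraries and 85.7 and 77.9 RPKM in KO 1 and KO 2. Htra3, a secreted serine protease of the family that includes the Igfbp5 protease Htra1, stood lower in both KO libraries. It was at 13.8 and 10.0 RPKM in the WT libraries and 0.248 and 4.46 RPKM in KO 1 and KO 2, a log2 fold change of -2.29 (SE 0.72, limma, Benjamini-Hochberg adjusted p = 0.660). With limma-voom its adjusted p was 0.033, and 0.115 when at least 20 reads were also required, where 0 pathway genes passed the adjusted threshold.

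Downstream of Igf1r, 11 of the 12 tested receptor adaptors and 20 of the 24 tested genes of the PI3K-Akt-mTOR arm had a log2 fold change below 0, with none called. Socs3, a feedback inhibitor, was the highest adaptor, at 32.7 and 15.4 RPKM in the WT libraries and 17.5 and 18.4 RPKM in KO 1 and KO 2, which overlapped. Akt1, the kinase that carries the signal on, was at 34.8 and 30.6 RPKM in the WT libraries and at 17.8 and 26.6 RPKM in KO 1 and KO 2, without overlap (log2 fold change -0.56, limma, Benjamini-Hochberg adjusted p = 0.712). Foxo4, a transcription factor that Akt holds out of the nucleus, was at 6.19 and 9.14 RPKM in the WT libraries and at 0.949 and 2.13 RPKM in KO 1 and KO 2 (log2 fold change -1.79, SE 0.44, limma, Benjamini-Hochberg adjusted p = 0.601).

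The lists on Igf2 and Igf2r held fewer tested genes. Igf2bp2, which binds Igf2 mRNA, was the only one tested of its 3, at 9.41 and 5.16 RPKM in the WT libraries and 4.92 and 4.01 RPKM in KO 1 and KO 2. Of the 7 genes that sort lysosomal enzymes with Igf2r, 5 were below 0 and 2 above. M6pr, the smaller mannose 6-phosphate receptor, was at 9.25 to 13.7 RPKM with overlapping groups. Nagpa, which uncovers the mannose 6-phosphate tag that Igf2r binds, was at 7.70 and 8.06 RPKM in the WT libraries and at 1.86 and 3.13 RPKM in KO 1 and KO 2, from 30 reads in all (log2 fold change -1.37, SE 0.38, limma, Benjamini-Hochberg adjusted p = 0.635).

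Of the 9 imprinted growth genes, 6 were tested and all 6 had a log2 fold change below 0, among them Grb10, which is also a receptor adaptor. Dlk1, too low to be tested, went the other way. It was at 0 in both WT libraries and at 1.36 and 0.438 RPKM in KO 1 and KO 2, from 9 reads in all. Mir483, a microRNA gene inside Igf2 of only 73 bases, was the highest by RPKM but held 30 reads in all, with WT library 2 highest at 436.1 RPKM. Peg3, a zinc finger gene, was at 13.6 and 4.78 RPKM in the WT libraries and at 3.23 and 1.95 RPKM in KO 1 and KO 2 (log2 fold change -1.38, SE 0.55, limma, Benjamini-Hochberg adjusted p = 0.672). H19, the non-coding neighbour of Igf2, was chosen for naming after its values were seen. It was at 253.5 and 19.8 RPKM in the WT libraries and at 8.07 and 15.1 RPKM in KO 1 and KO 2, so WT library 1 was the highest for H19 as it was for Igf2 (H19 log2 fold change -2.59, SE 1.15, limma, Benjamini-Hochberg adjusted p = 0.676). With limma-voom the adjusted p of H19 was 0.033, and 0.159 when at least 20 reads were also required.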

How the data were processed

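The authors deposited RPKM values per gene and library with gene lengths. Per the study's methods, low-quality, rRNA and tRNA reads were removed, reads were mapped with TopHat2 to mm10 with an Ensembl annotation, and genes were counted with HTSeq; its mode and strand setting are not given in the sources used here. The assay is Polysome-Seq in the titles but the protocol describes RNase I footprints. RPKM times gene length gave whole multiples of 1 step for 100% of values (tolerance 0.01), which gave reads per gene; the authors' library size was not the read total. No columns were unmapped.

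The test was limma 3.58.1 in R 4.3.3 (lmFit, eBayes with trend=TRUE), two-sided, on log2(RPKM + 1), with a minimum of 1 RPKM for the mean of a gene over the libraries and Benjamini-Hochberg adjustment over all 11363 genes. This scale understates changes of low genes. The script was checked on simulated data. Only counting error is covered by the Poisson and Wilson intervals (95%) and by the floor of 3 reads. The members and lists were chosen with earlier results of these data known. All 10 members were named, and from each role list the gene with the highest mean RPKM and those at an unadjusted p under 0.05. Alternatives were another pseudocount, filters, scalings, no trend, a replicate block, each library left out, limma-voom and removal of the trend on coding GC. Added after seeing the data were levels per coding length and limma-voom with a minimum of 20 reads. Of the gene identifiers, 99.7% were in GENCODE M21. No RNA abundance was used, so the values are not translation efficiencies.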

Additional observations from a re-analysis of the deposited data

How the results depend on the processing

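No member passed an adjusted p under 0.05 in limma under any alternative run. Most of these runs passed no gene of the whole table, so they could not single out the members. The exceptions were the same sum over protein-coding genes (0.106% of tested genes) and limma-voom (0.695%, or 0.48% with at least 20 reads). Igfbp5 and Igfbp7 kept their direction in all alternatives while their size moved. Igfbp5 ran from -1.001 (without WT library 2) to -0.09 (same sum), with -0.39 without WT library 1. Igfbp7 ran from 0.033 (without KO 1) to 0.88 (same sum). Igf2, at 0 in both KO libraries, could not change sign. Scaled to the same sum over all genes, the median log2 fold change of the members was 0.26, 1 member was lower and 4 were higher without overlap (7.87% and 41.4% of all tested genes), Igfbp3 was at 0.30 and Igf1r at 0.26. With the coding GC trend removed, Igfbp3 was at 0.17, Igfbp5 at -0.34, Igfbp4 at -0.46, Igfbp2 at -0.33, Igf2r at 0.026, Igfbp6 at 0.57 and Igfbp7 at 0.71. With a library left out, the member median ran from -0.38 to 0.13 (the highest without WT library 1), 0 to 2 members had an unadjusted p under 0.05, against 3.78% to 14.1% of all tested genes (Igf2 without WT library 1, Igf2 and Igfbp4 without WT library 2; with Igf2 at 0 in both KO libraries and 1 WT library left, its spread is 0 and its p shows no measured difference), and the lone library of a group was assumed to vary like the others. With a library left out, the sign turned for Igfbp4 (range -2.48 to 0.64) and Igf1r (-0.82 to 0.34, including 0.11 without KO 2) without WT library 1, for Igf2r (-0.032 to 0.31) without WT library 2 (-0.019) or KO 1, for Igfbp2 (-1.64 to 0.0086) without KO 1 and for Igfbp6 (-0.31 to 0.59) without KO 2. With limma-voom, 1 member (Igf2) had an unadjusted p under 0.05, and 0 when at least 20 reads were also required, which leaves Igf2 and Igfbp2 out. The causes were not tested. The labels share replicate numbers. The deviations of same-numbered libraries correlated at 0.057 over all tested genes, which cannot show whether these libraries were prepared together. With a replicate block, 0 members passed and the member median stayed at -0.29. There 5 pathway genes had an unadjusted p under 0.05, against 7.28% of all tested genes. Depth limits Igf1, Igf2 and Igfbp2, at 15 or 16 reads in all.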
